A study of Mus musculus with 4 samples.

Results

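Secreted Wnt antagonists are extracellular proteins that hold back Wnt signalling, the pathway that directs bone formation, joint patterning and the upkeep of connective tissue. Dickkopf proteins of the Dkk1 and Dkk2 kind and sclerostin, the product of Sost, bind the co-receptors LRP5 and LRP6 on the responding cell. The secreted Frizzled-related proteins (Sfrp1, Sfrp2, Sfrp4, Sfrp5 and Frzb, also called sFRP3) and Wif1 bind Wnt ligands themselves, and Dkk3 is a divergent Dickkopf whose place in the pathway is less clear. In arthritic joints Dkk1 is known as a TNF-responsive brake on bone formation. The 10 genes described here, Dkk1, Dkk2, Dkk3, Sfrp1, Sfrp2, Sfrp4, Sfrp5, Frzb, Wif1 and Sost, were listed by symbol for what they encode, with earlier results of these data known. All 10 were found among the 32285 genes counted.

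Single cells from synovium and lung were sequenced from the 3′ end of their RNA in droplets, a method that counts unique molecular identifiers (UMIs) per gene and cell, in TNF+ mice and TNF- littermates. TNF+ mice (hTNFtg) were C57BL/6 mice with 1 copy of a human TNF transgene, which develop inflammatory arthritis and pulmonary vascular disease. The TNF- group lacked the transgene, and both groups were females aged 4 months. Each library pooled 5 to 10 mice of a genotype for synovium, or 3 to 5 for lung, and viable cells were sorted by a dye that marks dead cells, so each of the 4 groups was a single library without replicates. For that reason no p-value is given anywhere. Levels are in UMIs per 1000000 UMIs of the cells summed (CPM), and every interval is a 95% interval of counting error alone and says nothing of how mice or preparations vary.

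The libraries held 48454234 to 155989523 UMIs. After the limits on genes and mitochondrial UMIs of the study, 6200 of 6899 barcodes were kept in the TNF- synovium, 3152 of 4246 in the TNF+ synovium, 6998 of 8555 in the TNF- lung and 9174 of 11243 in the TNF+ lung. Pairs of libraries shared at most 16 barcodes. Cell types were named from marker genes, with the 10 antagonists and the other Wnt genes left out of the clustering, and each name stands for cells like that type. Synovial fibroblasts were in 4 clusters, led by Grm8, Lrrtm3 and Cxcl14 (the Cxcl14 cluster), by Gdf10 and C4b (the Gdf10 cluster), by Mrgprg, Sv2c and Pi16 (the Pi16 cluster), and by Ibsp, Mmp13 and Saa3 (the Mmp13 cluster). The first 3 held 1504, 824 and 713 TNF- cells but only 63, 79 and 19 TNF+ cells, while the Mmp13 cluster held 2 TNF- and 233 TNF+ cells. Different clusters therefore held most fibroblasts of the 2 synovial libraries. The leading genes of the Mmp13 cluster included Ibsp, a marker of osteoblasts, Acan, a marker of chondrocytes, and no listed fibroblast marker, although 8 fibroblast markers passed the naming rule and Col1a1 was at 11888 CPM. The member counts, the list counts and the ratios of the main members over fibroblasts are therefore also given without it.

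The genes lay at chr19:30545863-30549665 (Dkk1, ENSMUSG00000024868, minus strand), chr3:132085292-132180304 (Dkk2, ENSMUSG00000028031, plus), chr7:112116017-112159057 (Dkk3, ENSMUSG00000030772, minus), chr8:23411502-23449632 (Sfrp1, ENSMUSG00000031548, plus), chr3:83766321-83774316 (Sfrp2, ENSMUSG00000027996, plus), chr13:19623104-19632994 (Sfrp4, ENSMUSG00000021319, plus), chr19:42197971-42202252 (Sfrp5, ENSMUSG00000018822, minus), chr2:80411970-80447625 (Frzb, ENSMUSG00000027004, minus), chr10:121033960-121100650 (Wif1, ENSMUSG00000020218, plus) and chr11:101962458-101967015 (Sost, ENSMUSG00000001494, minus) of build GRCm38. All are protein-coding. Sfrp2 is overlapped on the other strand by Gm26771, and the other 9 overlapped no annotated gene.

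Promoter sequence was found for 7 of the 10 genes in RefSeq (GRCm38.p6). The 250 bases before the start are shown for Dkk2, Sfrp2 and Sfrp5, because the UMIs of these genes lay mainly in different cells: fibroblasts for Dkk2, fibroblasts and a tendon-like cluster for Sfrp2, and Schwann cells with an unnamed cluster for Sfrp5. The windows are chr3:132085042-132085291 (plus strand), chr3:83766071-83766320 (plus) and chr19:42202253-42202502 (minus), each written from 5′ to 3′, with a TATAAA motif in capitals.
Dkk2: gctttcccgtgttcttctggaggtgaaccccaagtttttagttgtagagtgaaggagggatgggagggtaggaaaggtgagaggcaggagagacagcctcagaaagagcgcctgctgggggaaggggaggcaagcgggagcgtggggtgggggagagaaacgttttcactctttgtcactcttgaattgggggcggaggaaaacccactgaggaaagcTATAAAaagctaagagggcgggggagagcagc
Sfrp2: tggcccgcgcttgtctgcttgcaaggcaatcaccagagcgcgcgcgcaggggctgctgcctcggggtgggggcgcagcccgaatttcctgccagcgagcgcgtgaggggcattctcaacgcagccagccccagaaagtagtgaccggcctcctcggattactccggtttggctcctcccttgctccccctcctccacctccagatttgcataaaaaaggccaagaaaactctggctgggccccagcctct
Sfrp5: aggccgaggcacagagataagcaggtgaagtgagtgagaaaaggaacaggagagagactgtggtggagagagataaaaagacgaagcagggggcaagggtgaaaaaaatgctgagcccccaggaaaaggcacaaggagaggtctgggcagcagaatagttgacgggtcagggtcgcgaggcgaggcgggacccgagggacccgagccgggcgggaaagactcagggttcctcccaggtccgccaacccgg
The Dkk2 window held TATAAA 32 to 27 bases before the start, a motif found on either strand in 12.4% of 32851 promoter windows of this length. The windows of Sfrp2 and Sfrp5 held none. None of the 3 held any of the TCF/LEF forms searched on both strands, which were the form CTTTGAT, the form CTTTGTT, the form CTTTGAA and the form CTTTGTA, of which at least 1 was in 14.8% of all windows. Their GC content was 55.6% (Dkk2), 63.6% (Sfrp2) and 59.6% (Sfrp5), against a median of 52.4% over all windows. Among the members' windows not shown, that of Dkk1 did hold TCF/LEF forms, the form CTTTGTT and the form CTTTGAA, as well as TATAAA. That of Wif1 held TATAAA on the other strand.

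In synovium and in the TNF- lung, most tested antagonists had more than 50% of their UMIs in mesenchyme. Mesenchyme here means the fibroblasts, tendon-like cells and mural cells (pericytes and smooth muscle). In the TNF- synovium 7 of the 8 members with at least 20 UMIs had more than 50% of their UMIs there, from 80.5% for Frzb (65.1 to 91.2%) to 99.3% for Sfrp2 (98.9 to 99.6%). The exception was Sfrp5. With each library clustered by itself, only 1661 TNF- cells were named fibroblasts, against 3043 in the main clustering. Then 5 members had more than 50% of their UMIs in mesenchyme, as the share of Sfrp4 was 34.6% and that of Frzb 36.6%. In the TNF+ synovium 6 of 8 did so, and Frzb joined Sfrp5 outside the mesenchyme. In the lung it was 5 of 7 members in the TNF- library and 2 of 5 in the TNF+ library. Mesenchyme made up 58.7% of kept cells in the TNF- synovium, 20.9% in the TNF+ synovium, 8.07% in the TNF- lung and 2.32% in the TNF+ lung, so the level over a whole library moves with these shares as well as with the level per cell. How many of all genes pass 50% in mesenchyme was not counted. In the TNF- synovium a gene spread evenly over the cells would pass it, so the count there does not set the members apart.

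**Figure D1:**
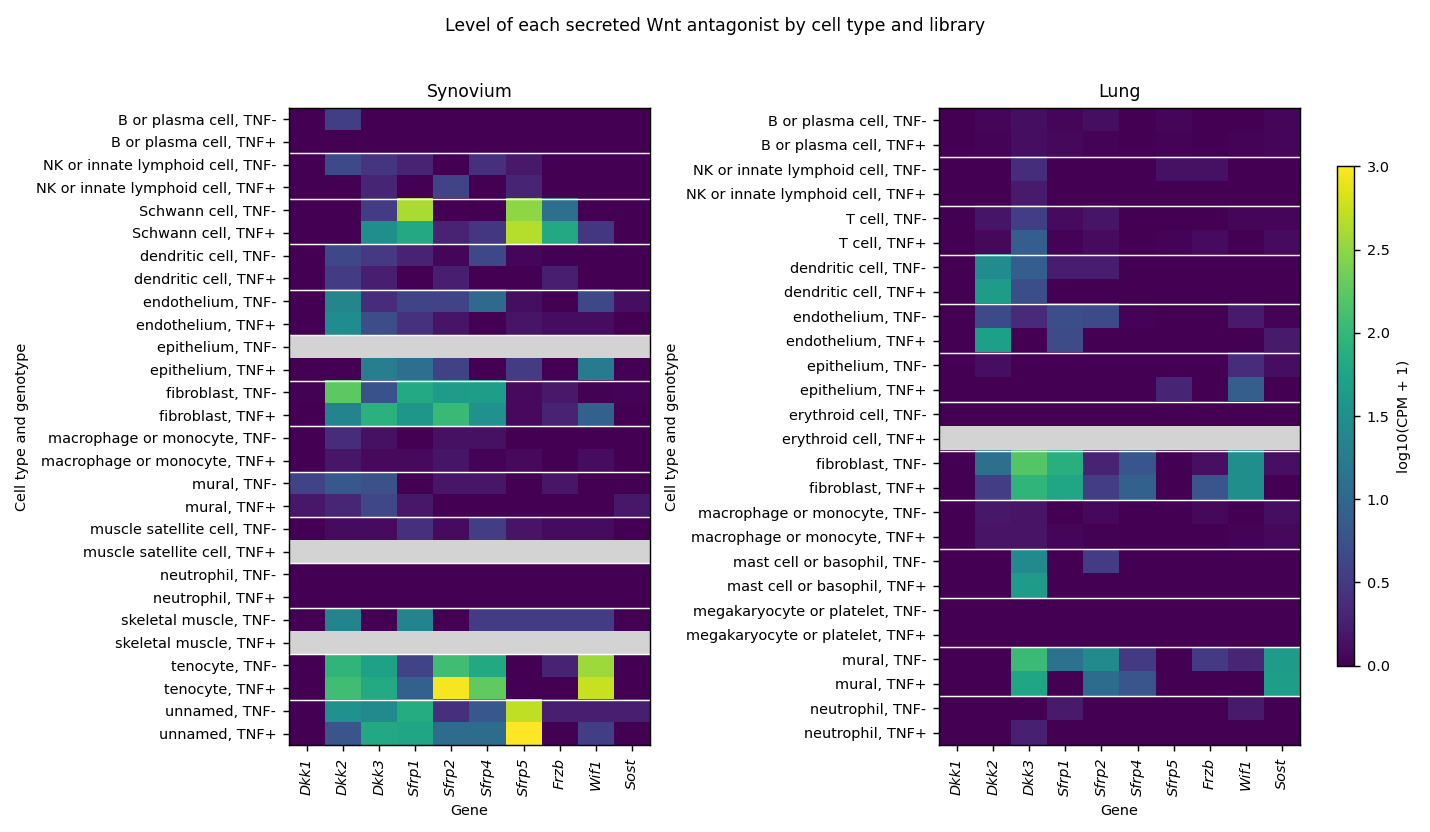
Level of each of the 10 genes as log10(CPM + 1), by colour, in each named cell type (rows, TNF- above TNF+) of synovium (left) and lung (right). Grey rows had fewer than 20 cells in that library. The bright fields lie in fibroblasts, tendon-like (tenocyte) cells, Schwann cells and an unnamed cluster of the synovium, and in fibroblasts and mural cells of the lung.

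Over the whole synovium, 3 of the 8 members with at least 20 UMIs were over 2-fold higher in TNF+ (Dkk3, Sfrp5 and Frzb) and 3 were over 2-fold lower (Dkk2, Sfrp1 and Sfrp4). Of all 19255 genes tested in the same way, 11.8% were higher and 21.9% lower. The share of fibroblasts was 49.1% of cells in the TNF- and 12.5% in the TNF+ library, and its part in these ratios was not tested. Within fibroblasts 3 of 7 members were over 2-fold higher (Dkk3, Sfrp2 and Wif1) against 8.73% of 16223 genes, and 1 was lower (Dkk2) against 23.6%. The mix of fibroblast clusters still enters these sums. Without the Mmp13 cluster 2 of 6 were higher (Dkk3 and Sfrp2) against 7.68% of 15943 genes, and 1 was lower (Dkk2) against 11.7%. Wif1 then had fewer than 20 UMIs and was not tested. The median log2 ratio of the members was 0.69 over the 7 and 0.09 over the 6. The median log2 ratio over all genes was -0.31 in fibroblasts, so each member stood 0.31 higher against the typical gene than its own ratio shows. Without the Mmp13 cluster the median over all genes was -0.02.

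Dkk2, which binds LRP6, was the antagonist most reduced in TNF+ synovium. It had 8661 UMIs in the TNF- and 339 in the TNF+ library, or 114 CPM (111 to 116) and 10.3 CPM (9.20 to 11.4), a log2 ratio of -3.47 (-3.63 to -3.31) and an 11.1-fold lower level. In fibroblasts it had 8193 UMIs in 3043 TNF- cells and 109 in 394 TNF+ cells, or 175 and 21.7 CPM, a log2 ratio of -3.01 (-3.30 to -2.74). Both the cluster mix and the level within clusters moved with this. The Cxcl14 cluster was at 198 CPM (TNF-) and 54.7 CPM (TNF+) (log2 ratio -1.86, -2.52 to -1.27), and the Gdf10 cluster at 190 and 72.6 CPM (-1.39, -1.84 to -0.97), where 15.2% and 11.5% of all genes were over 2-fold lower. The Pi16 cluster was at 114 CPM in TNF- cells, and its 19 TNF+ cells had no Dkk2 UMI. The Mmp13 cluster, nearly all TNF+, was at 10.5 CPM (7.50 to 14.3). Without that cluster the fibroblast ratio was -1.62 (-1.99 to -1.28).

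Dkk2 differed in direction between synovial clusters. The tendon-like cluster described below was at 90.04 CPM (TNF-) and 121 CPM (TNF+), a log2 ratio of 0.42 (0.08 to 0.75), although 5 cells held 70.0% of its 100 TNF+ UMIs. With the limit of 5000 genes lifted and the cells clustered anew, this direction reversed, to 176 CPM (683 UMIs) and 109.6 CPM (107 UMIs), a log2 ratio of -0.69 (-0.99 to -0.39). An endothelial cluster led by Cytl1 and Gkn3 with the arterial genes Gja5 and Bmx was at 52.9 CPM over 80 TNF- and 86.9 CPM over 143 TNF+ cells (0.71, 0.07 to 1.41), and without the limit its ratio was 0.89 (0.25 to 1.57). With the limit, these cells held 29.2% of the Dkk2 UMIs left in the TNF+ library and 0.29% of those in the TNF- library. Other endothelial clusters differed from it. Without the limit, that led by Ablim3 and Mcf2l was at 136 CPM (TNF-, 73 UMIs) and 24.2 CPM (TNF+, 4 UMIs), a ratio of -2.49 (-4.40 to -1.07). That led by Ccl21a and Nts was at -1.74 (-2.81 to -0.60), and that led by Timp4 at 0.88 (-0.17 to 2.04). After each cell was thinned to 1000 UMIs, 12.9% of TNF- and 3.19% of TNF+ fibroblasts had a Dkk2 UMI (40.9% and 10.7% without thinning). In macrophages and monocytes, which should lack the gene, the thinned share was 0.459% in TNF- cells and 0 of 1070 in TNF+ cells, which allows up to 0.280% (1.81% and 0.540% without thinning). The median depth was 15604 and 10783 UMIs in TNF- and TNF+ fibroblasts, so both fibroblast shares stood above this background.

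Dkk3, the divergent Dickkopf, went the other way. The whole TNF- synovium had 456 UMIs and 5.98 CPM (5.45 to 6.56), the TNF+ synovium 584 UMIs and 17.7 CPM (16.3 to 19.2), a log2 ratio of 1.56 (1.38 to 1.74). Fibroblasts carried the difference, with 219 UMIs and 4.67 CPM in TNF- and 408 UMIs and 81.2 CPM in TNF+ cells (4.12, 3.88 to 4.36). The Mmp13 cluster was at 97.4 CPM (87.7 to 108) and held 63.5% of the Dkk3 UMIs of the TNF+ library, although its level was not particular to it: 36 epithelial cells led by Krt14 were at 104 CPM (73.0 to 144) and the unnamed Tenm2 cluster described below at 95 CPM (57.2 to 148). Within the Gdf10 cluster, present in both libraries, the level was 15.9 CPM (TNF-) and 53.7 CPM (TNF+) (1.75, 1.18 to 2.28), against 6.28% of all genes over 2-fold higher there, and over fibroblasts without the Mmp13 cluster the ratio was 2.71 (2.17 to 3.22). The TNF- Pi16 cluster, by comparison, was at 0.85 CPM. The thinned share of fibroblasts with a Dkk3 UMI was 0.494% in TNF- and 6.65% in TNF+ cells (4.17% and 37.3% without thinning), while macrophages were at 0 of 218 (up to 1.38%) and 0.093%.

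**Figure D2:**
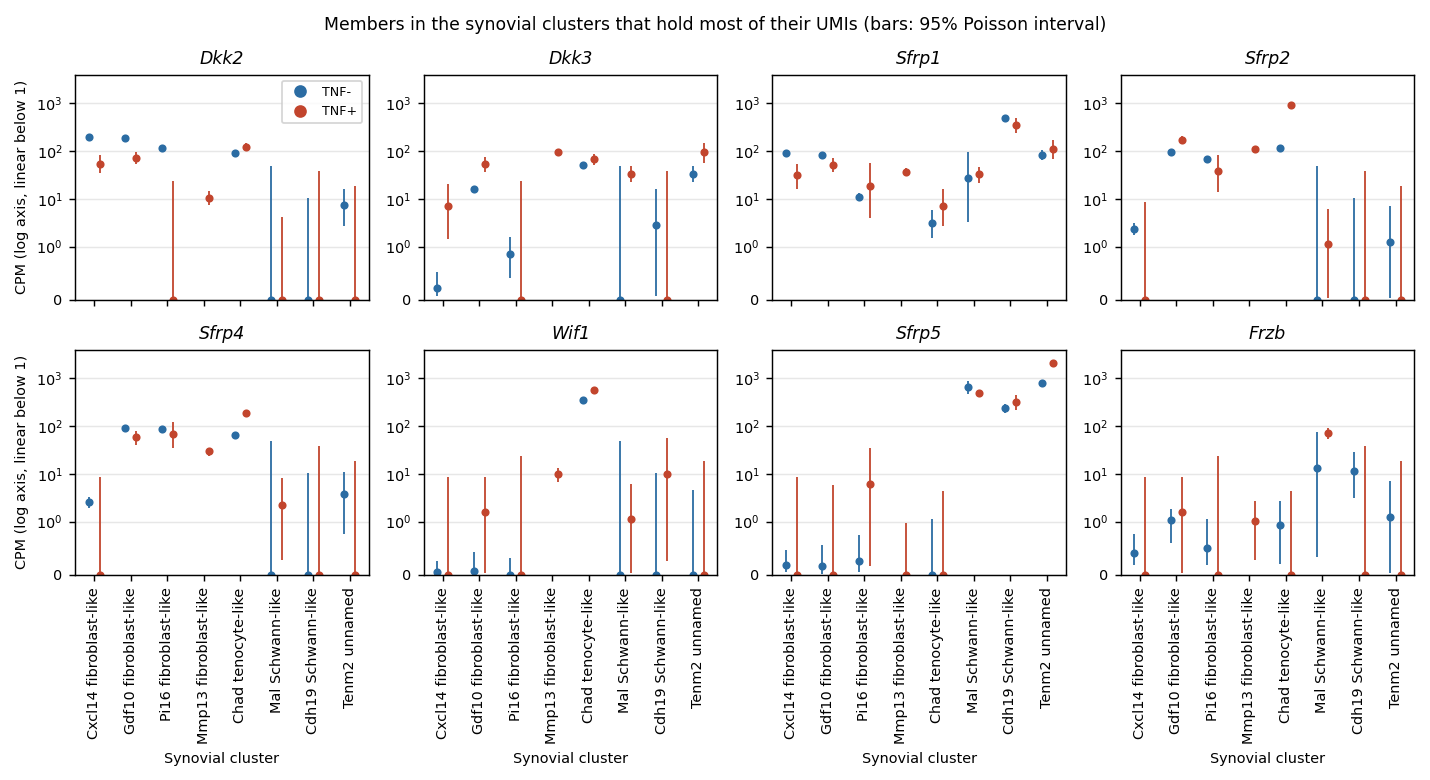
CPM (log axis, linear below 1) of the 8 members with at least 20 UMIs in 8 synovial clusters, in TNF- (blue) and TNF+ (red) cells, with 95% Poisson intervals as bars. A cluster with fewer than 10 cells in a library has no point for it, which applies to the 2 TNF- cells of the Mmp13 cluster. Dkk2 sits lower in red in the Cxcl14 and Gdf10 clusters, Wif1 peaks in the tendon-like cluster, and Sfrp5 in the Schwann cells and the unnamed Tenm2 cluster.

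Sfrp1, a Wnt-binding sFRP, was lower over the whole TNF+ synovium, with 3506 UMIs and 46.0 CPM (44.5 to 47.6) in TNF- and 315 UMIs and 9.53 CPM (8.51 to 10.6) in TNF+ cells (log2 ratio -2.27, -2.44 to -2.10). In fibroblasts its levels were 68.0 and 37.6 CPM (-0.85, -1.07 to -0.64), short of 2-fold, and without the Mmp13 cluster the ratio was -0.75 (-1.19 to -0.35). Over all fibroblasts this direction held only under the upper limit of 5000 genes per cell: without the limit the levels were 66.7 and 77.6 CPM (0.22, 0.11 to 0.33). The Mmp13 cluster was at 36.7 CPM with the limit and 82.6 CPM without it. The cells were also clustered anew without the limit, and what moved the sign was not tested. In the Cxcl14 cluster the level was 90.4 CPM in TNF- and 30.9 CPM in TNF+ cells (-1.55, -2.46 to -0.77), against 15.2% of genes that were over 2-fold lower there, and in the Gdf10 cluster 81.2 and 52.1 CPM (-0.64, -1.19 to -0.14). Without the limit both stayed lower, at -1.69 (-2.65 to -0.89) and -0.59 (-1.13 to -0.09). The Pi16 cluster, with 4 TNF+ UMIs, was then at 1.12 (-0.77 to 2.51).

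Schwann cells, the glia of peripheral nerve, also had Sfrp1, as did the unnamed Tenm2 cluster, at 83.5 CPM (64.7 to 106) and 110.0 CPM (68.9 to 167). The Schwann cell level was 419 CPM over 66 TNF- cells and 63.8 CPM over 234 TNF+ cells, but the mix behind these sums was not the same. A cluster led by Grik2 and Cdh19 held 52 of the TNF- and 19 of the TNF+ cells, and a cluster with the myelin genes Mal and Mag held 14 and 215. Within the Cdh19 cluster Sfrp1 was at 502 CPM (430 to 582) and 346 CPM (240 to 483), and in the TNF+ cells of the Mal cluster it was at 32.6 CPM. Most of the gap between the pooled Schwann values thus lay between the clusters.

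Sfrp2 and Sfrp4, both Wnt-binding sFRPs, had TNF- levels that were ordered alike over part of the fibroblast clusters. Most fibroblasts with 1 of them had no UMI of the other, although they had it more often than fibroblasts at large. Sfrp2 had 2476 UMIs and 32.5 CPM in the TNF- and 1312 UMIs and 39.7 CPM in the TNF+ synovium (log2 ratio 0.29, 0.19 to 0.39), a direction that turned to -0.23 with each cell weighted equally. Fibroblast levels were 44.4 CPM without and 106 CPM with the transgene (1.25, 1.11 to 1.39), and the ratio was 1.07 (0.78 to 1.34) without the Mmp13 cluster. Few cells carried that level: 71 of 394 TNF+ fibroblasts had a Sfrp2 UMI, and 5 cells held 48.7% of the UMIs. With each cell weighted equally the fibroblast ratio was 0.80. The thinned shares, 2.60% of TNF- and 3.19% of TNF+ fibroblasts, lay within each other's intervals (9.56% and 18.0% without thinning). By cluster, Sfrp2 was at 97.5 CPM (TNF-) and 169 CPM (TNF+) in the Gdf10 cluster (0.79, 0.49 to 1.08, and 1.46, 1.17 to 1.74, without the limit of 5000 genes), at 67.1 CPM in the TNF- Pi16 cluster and at only 2.37 CPM in the TNF- Cxcl14 cluster.

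Sfrp4 had 2485 UMIs and 32.6 CPM in the TNF- and 322 UMIs and 9.74 CPM in the TNF+ synovium (log2 ratio -1.74, -1.92 to -1.58). Most of that gap was absent within fibroblasts, at 46.8 and 31.9 CPM (-0.55, -0.79 to -0.32), and the ratio was -0.24 (-0.69 to 0.17) without the Mmp13 cluster. The direction turned to 1.07 when each library was clustered by itself, which named only 1661 TNF- cells as fibroblasts. Its TNF- levels followed those of Sfrp2, at 89.2 CPM in the Gdf10 cluster, 84.9 CPM in the Pi16 cluster and 2.59 CPM in the Cxcl14 cluster. In TNF- fibroblasts 137 cells held UMIs of both genes, 47.1% of the 291 with Sfrp2 and 30.9% of the 444 with Sfrp4, and in TNF+ fibroblasts 13 cells did, 18.3% of 71 and 32.5% of 40. For Dkk2 and Sfrp1 the overlap in TNF- fibroblasts was 603 cells, 48.4% of the 1245 with Dkk2 and 61.4% of the 982 with Sfrp1. These numbers of cells with each gene are out of 3043 TNF- and 394 TNF+ fibroblasts. The depth of the cells was not taken into account in the overlaps.

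Wif1, which binds Wnt ligands through its own WIF domain, had most of its UMIs in 1 synovial cluster. That cluster, with 302 TNF- and 75 TNF+ cells, was led by Chad, Kera, Cilp2 and Fmod, had 13 of the tendon markers and is called tendon-like here. It held 98.5% of Wif1 UMIs in the TNF- and 85.3% in the TNF+ synovium, at 360 CPM (339 to 381) and 559 CPM (510 to 613), a log2 ratio of 0.64 (0.48 to 0.79). Without the limit of 5000 genes the ratio was 0.65 (0.49 to 0.81), but the cluster held only 57.4% of the TNF+ UMIs of Wif1 (98.3% in TNF-), and fibroblasts 30.9%. The thinned share of its cells with a Wif1 UMI was 14.8% (10.9 to 19.3%) in TNF- and 29.3% (19.4 to 41.0%) in TNF+ cells, or 38.1% and 64.0% without thinning. Over the whole synovium the 2 libraries differed little, with 1164 UMIs and 15.3 CPM against 544 UMIs and 16.5 CPM (0.11, -0.04 to 0.26), or 0.37 (0.24 to 0.50) without the limit. Tendon-like cells were 4.87% of TNF- and 2.38% of TNF+ cells, and the part of these shares in the ratio was not tested.

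The remaining Wif1 UMIs of the TNF+ library lay in cells that were rare or absent in the TNF- library. Fibroblasts had 2 UMIs among 3043 TNF- cells and 38 among 394 TNF+ cells, 37 of them in 11 cells of the Mmp13 cluster (9.71 CPM). With counts of 2 and 38, the log2 ratio of 7.47 had an interval of 5.52 to 10.57, and 5 cells held 78.9% of the TNF+ UMIs. Without the limit TNF+ fibroblasts had 249 UMIs and 22.5 CPM (log2 ratio 9.22, 7.35 to 12.27), 247 of them in 34 cells of the Mmp13 cluster (25.2 CPM). A further 28 UMIs lay in 18 of 36 epithelial cells led by the basal keratins Krt14, Krt17 and Krt5 (81.0 CPM, 53.8 to 117), of which the TNF- library held only 2. The same epithelial cells had 36 UMIs of Dkk3 and 22 of Sfrp1.

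The tendon-like cluster also held the highest synovial levels of Sfrp2 among named cell types. TNF- cells had 376 Sfrp2 UMIs (118 CPM) and TNF+ cells 756 (911 CPM) (log2 ratio 2.95, 2.77 to 3.13), and Sfrp4 at 66.2 and 186 CPM (1.49, 1.18 to 1.79). Both were over 2-fold higher, against 4.52% of 10111 genes in this cluster, and none of its 5 tested members was over 2-fold lower, against 14.9%. These 2 differences rested on very few cells, and that of Sfrp4 also on the limit of 5000 genes. Without it, Sfrp2 was at 219 and 789 CPM (1.85, 1.70 to 1.99), and Sfrp4, at 163 and 158 CPM (-0.05, -0.31 to 0.21), no longer differed beyond its counting interval. With the limit, 5 cells of the TNF+ library held 82.0% of the Sfrp2 UMIs and 96.8% of the Sfrp4 UMIs, and 22 and 9 of the 75 cells had any. Dkk3, with 51.8 and 67.5 CPM (0.38, -0.08 to 0.83), had an interval that held 0, and was at 0.52 (0.11 to 0.91) without the limit.

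**Figure D3:**
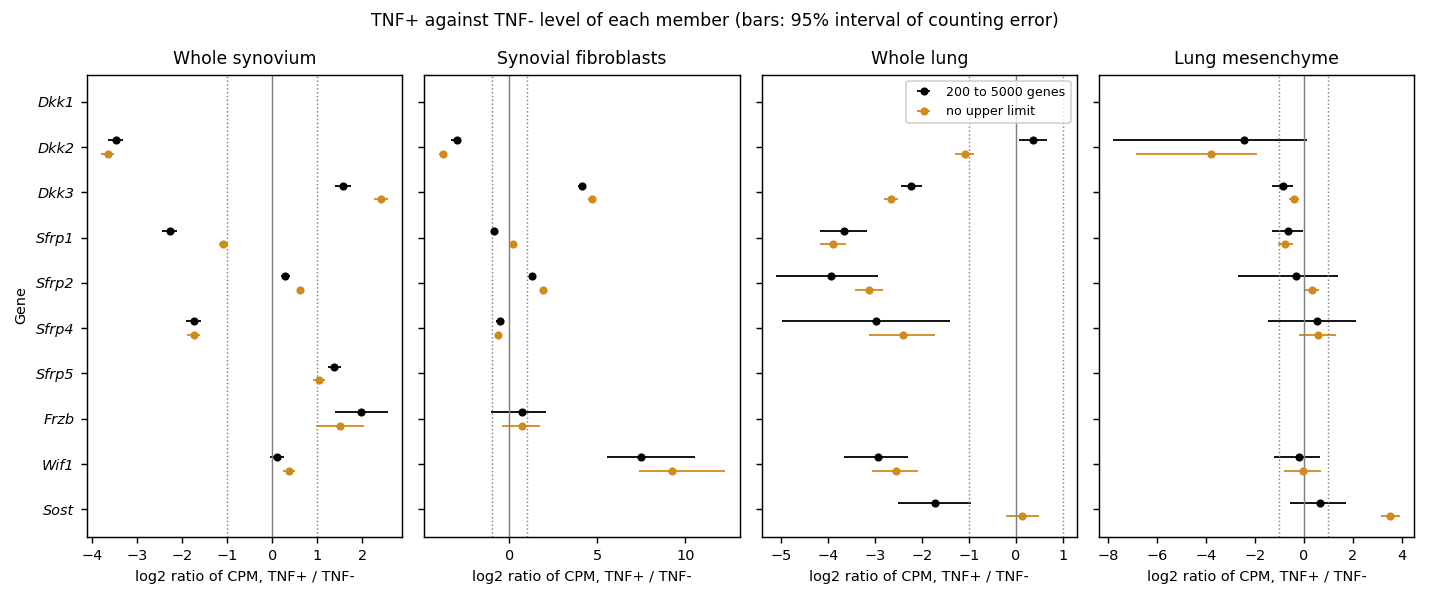
Log2 ratio of TNF+ over TNF- CPM of each gene in whole synovium, synovial fibroblasts, whole lung and lung mesenchyme, with 95% intervals of counting error as bars and 2-fold marked by dotted lines. Black points keep cells with 200 to 5000 genes and orange points lift the upper limit. Genes with fewer than 20 UMIs have no point, and only Sfrp1 in synovial fibroblasts (-0.85 and 0.22), Dkk2 (0.37 and -1.09) and Sost (-1.71 and 0.14) in whole lung, and Sfrp2 in lung mesenchyme (-0.31 and 0.32) change sign between them.

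Sfrp5 and Frzb had more of their UMIs in Schwann cells in the TNF+ than in the TNF- synovium. Schwann cells held 16.5% of the Sfrp5 UMIs in the TNF- library and 51.9% in the TNF+ library. Sfrp5 had 789 UMIs and 10.4 CPM in the TNF- and 891 UMIs and 27.0 CPM in the TNF+ synovium (log2 ratio 1.38, 1.24 to 1.52). Fibroblasts, which hold most other antagonists, had 9 and 1 of these UMIs. Its Schwann cell level was 306 CPM without the transgene and 468 CPM with it (0.61), and Schwann cells were 1.06% and 7.42% of cells. A cluster of 100 TNF- and 27 TNF+ cells was led by Tenm2, Sfrp5, Lypd2 and Cldn1. It fell short of the markers needed for a name, with 3 mesothelial and 3 Schwann cell markers at most. Its Sfrp5 level was 791 CPM (731 to 855) and 2085 CPM (1890 to 2295). It held 80.5% and 46.8% of all Sfrp5 UMIs. Of its 417 TNF+ UMIs, 67.6% lay in 5 cells.

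Frzb was sparse, with 41 UMIs and 0.54 CPM in the TNF- and 70 UMIs and 2.12 CPM in the TNF+ synovium (log2 ratio 1.98, 1.40 to 2.57). The cells behind these UMIs differed. In the TNF- library 29 of 41 lay in fibroblasts and 5 in Schwann cells, and in the TNF+ library 63 of 70 lay in Schwann cells, all of the Mal cluster (70.8 CPM, 54.4 to 90.6, in 47 of 215 cells). The Mal cluster of the TNF- library held only 14 cells, too few for a level of this size to be compared.

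Dkk1 and Sost, the antagonists best known from bone, were nearly undetected in synovium. Dkk1 had 8 UMIs in 6 cells of the TNF- library, 6 of them in mural cells, and 1 UMI in the TNF+ library. The 394 TNF+ fibroblasts had none, which allows up to 0.60 CPM (3 UMIs), and none appeared in the barcodes that the filters removed. Sost, made by osteocytes, had 5 and 1 UMIs. A difference between TNF- and TNF+ was not detectable for either gene at this depth.

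The lung antagonists, by contrast, were mostly lower over the whole TNF+ library. Of 7 members with at least 20 UMIs, 6 were over 2-fold lower, against 25.5% of 19510 genes, and none was over 2-fold higher, against 5.79%. Dkk3 had 666 UMIs and 12.4 CPM in TNF- and 223 UMIs and 2.64 CPM in TNF+ lung (log2 ratio -2.23, -2.45 to -2.01), and Sfrp1 had 313 and 39 UMIs, 5.82 and 0.46 CPM (-3.65, -4.17 to -3.17). Dkk2 alone was not lower, with 139 and 282 UMIs (0.37, 0.07 to 0.67), 126 of the latter from 1 cell. The other 4 were Sfrp2 (88 and 9 UMIs, -3.94), Sfrp4 (20 and 4 UMIs, -2.97), Wif1 (113 and 23 UMIs, -2.95) and Sost (46 and 22 UMIs, -1.71). Kept mesenchyme was 565 cells in the TNF- and 213 in the TNF+ lung, and the TNF+ cells were shallow, with a median of 1223 UMIs in fibroblasts and 643 in mural cells against 6632 and 6438 in the TNF- library.

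Within lung mesenchyme far less of this was left. Of 7 members tested, 1 was over 2-fold lower (Dkk2) against 9.14% of 11948 genes, and none was over 2-fold higher against 9.35%. Dkk3 was at 147 CPM (TNF-) and 80.9 CPM (TNF+) there (-0.86, -1.32 to -0.43), and Sfrp1 at 61.3 and 39.6 CPM (-0.63, -1.32 to -0.01), both short of 2-fold. The intervals of Wif1 (-0.21), Sfrp2 (-0.31), Sfrp4 (0.56) and Sost (0.65) all held 0. The Dkk2 value cannot be read as a level of the tissue: 35 of its 38 TNF- UMIs came from 1 cell, the TNF+ cells had 1 UMI, and its interval of -7.78 to 0.12 held 0.

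The TNF- lung showed which fibroblasts made which antagonist. A cluster with 10 of 10 alveolar fibroblast markers, among them Inmt, Tcf21 and Npnt, was at 134 CPM for Dkk3 and 89.2 CPM for Sfrp1 over 350 cells. A second cluster, led by Hhip and Aspn, had 9 of 10 markers of ductal or peribronchial fibroblasts. It held 82.3% of this library's Wif1 UMIs in 95 cells (97.4 CPM), together with 211 CPM of Dkk3 and 41.9 CPM of Sfrp1. Without the limit of 5000 genes, all mesenchyme held 61.2% of the TNF- Wif1 UMIs and epithelium 27.1%. In the TNF+ lung these shares were 40.4% and 42.6%. An epithelial cluster led by Scgb1a1 and Cyp2f2 was then at 25.4 CPM (TNF-) and 32.0 CPM (TNF+) of Wif1. Sost was found in smooth muscle-like cells with Acta2 and Myh11, at 45.6 CPM in 10 of 99 cells, where Dkk3 was at 106 CPM. In the TNF+ library the alveolar-type cluster kept 105 cells (88.4 CPM of Dkk3, log2 ratio -0.60, -1.17 to -0.07), and the Hhip cluster only 4, so a level of Wif1 in the latter could not be compared.

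Outside the mesenchyme, lung Dkk2 was found in a few endothelial cells, and Dkk2 and Dkk3 in a few leukocytes. Endothelium held 52 of 139 Dkk2 UMIs in the TNF- lung, in 9 of 2276 cells. In the TNF+ lung it held 73 of 282, in 5 of 394 cells. Without the limit of 5000 genes it held 43.6% (9.72 CPM) in TNF- and 37.1% (30.8 CPM) in TNF+ lung. The genes used to split the leukocytes were chosen after the values were seen. All Dkk2 UMIs of a dendritic cell cluster lay in its Ccr7-positive cells, the migratory kind: 39 UMIs in 2 of 12 such cells in the TNF- and 186 UMIs in 6 of 43 in the TNF+ lung. A single TNF+ cell gave 126 of them, and that cell had no UMI of Ccl22, another leading gene of the cluster. Split by Ccl22, all 39 TNF- UMIs lay in cells with it, but only 60 of the 186 TNF+ UMIs did. In a T cell cluster led by Il23r, Ccr4 and Cd163l1, Dkk3 levels were 10.8 CPM (TNF-) and 11.4 CPM (TNF+) (log2 ratio 0.08, -0.64 to 0.86). Its cells with a UMI of Cd163l1, a gene of gamma delta T cells, were at 70.9 CPM (37.8 to 121) without the transgene and 58.3 CPM (42.0 to 78.8) with it, and those without at 4.18 (1.68 to 8.61) and 6.44 (4.68 to 8.64). The intervals did not overlap between cells with and without Cd163l1 in either library. Basophils were at 26.0 and 45.0 CPM of Dkk3 (0.79, -0.18 to 1.89). Lymphocytes and myeloid cells, at 42.2% and 36.8%, thus held most of the Dkk3 UMIs of the TNF+ lung, where mesenchyme held 21.1%, against 89.3% in mesenchyme of the TNF- lung. This too turned on the limit of 5000 genes, without which mesenchyme held the largest part in the TNF+ lung, 48.8%, with 32.4% in lymphocytes and 13.5% in myeloid cells.

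The upper limit of 5000 genes removed many UMIs of these genes. Barcodes dropped by the filters held 12.8% of the members' UMIs in the TNF- synovium, 40.2% in the TNF+ synovium, 67.4% in the TNF- lung and 53.4% in the TNF+ lung, and nearly all of these lay in the 420, 346, 1298 and 1909 barcodes over 5000 genes. Without the limit, the whole-synovium counts stayed at 3 members higher (12.1% of genes) and 3 lower (22.1%), and those of fibroblasts at 3 higher (10.8%) and 1 lower (29.2%). In fibroblasts Dkk2 was then at -3.77 (-4.03 to -3.53), Dkk3 at 4.68 (4.47 to 4.90), Wif1 at 9.22 and Sfrp2 at 1.89 (1.79 to 1.99) on the log2 scale. Of 8 lung members tested, 6 were over 2-fold lower (25.9% of genes) and none higher (5.48%), with Dkk2 now among them at -1.09 (-1.30 to -0.89) and Sost no longer, at 0.14 (-0.21 to 0.50).

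Lung mesenchyme gained a member over 2-fold higher without the limit, Sost, against 7.44% of 13903 genes, and kept Dkk2 as the only member lower, against 7.98%. Sost had 80 UMIs in 18 of 154 TNF- mural cells and 172 UMIs in 7 of 133 TNF+ mural cells, a log2 ratio over mesenchyme of 3.53 (3.14 to 3.93) that rests on those 7 cells. Sfrp2 without the limit was highest in 14 TNF- and 9 TNF+ cells led by Msln and Upk3b, which are mesothelial genes although the cluster passed the rule for fibroblasts, at 658 and 393 CPM.

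**Figure D4:**
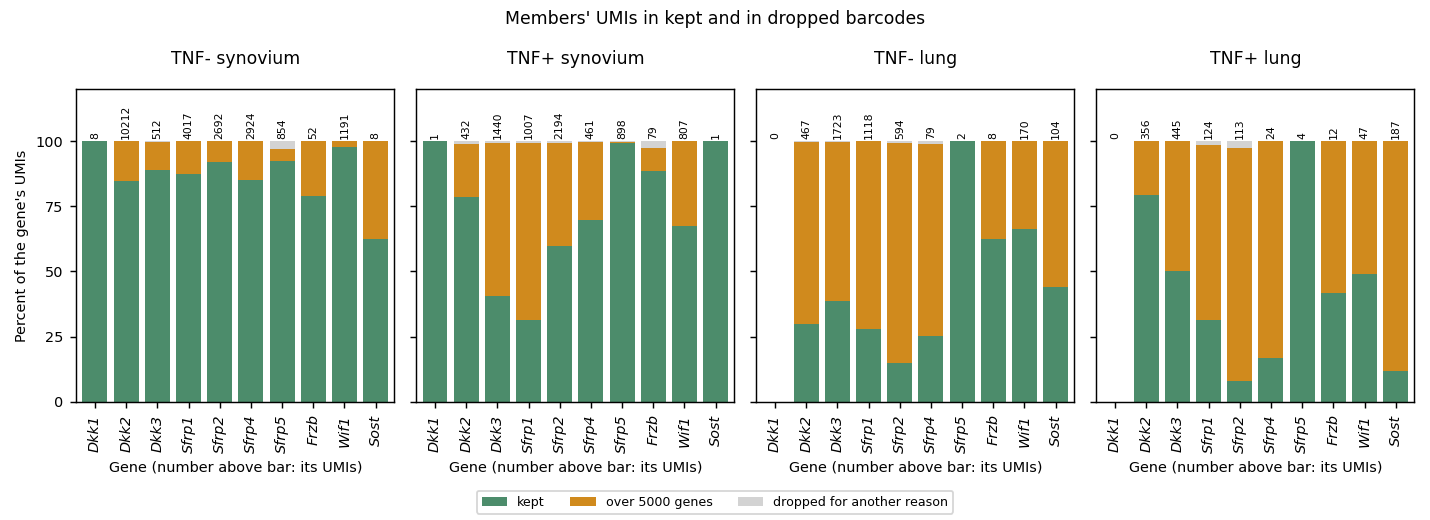
Percent of each gene's UMIs in kept barcodes (green), in barcodes over 5000 genes (orange) and in barcodes dropped for another reason (grey), by library, with the gene's total UMIs above each bar. In the TNF- lung the orange part exceeds the green for Dkk2, Dkk3, Sfrp1, Sfrp2, Sfrp4 and Sost, and in the TNF+ synovium for Dkk3 and Sfrp1.

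Genes whose levels followed an antagonist most closely were sought over 36 synovial sums of cells by cluster and library, each of at least 50 cells, among 13594 genes. The sums share their libraries and sizes, so the correlations of log2(CPM + 1) are descriptions. Dkk2 was most like Arhgap20 (r = 0.865), Pcolce2 and Fbln2. Dkk3 was most like Cdh11 (0.829), a cadherin of synovial fibroblasts, and Egfl6. For Sfrp1 the first was Lgi4 (0.834), a Schwann cell gene, then Scn7a and Gpm6b. Sfrp4 headed the list of Sfrp2 (0.892), before Anxa8 and Gm26771, the gene that overlaps Sfrp2 on the other strand, whose reads could not be told apart from those of Sfrp2 if counted without strand. Sfrp4 itself was most like Pitx1 (0.899), a hindlimb transcription factor, Sfrp5 like Kcna1 (0.891), Frzb like Gjc3 (0.861), a gap junction gene of glia, and Wif1 like Col22a1 (0.884), Scx and Kera, of which Scx is the transcription factor of tendon. Over 47 lung sums and 14239 genes, Sfrp1 was most like Nnmt (0.950), Dkk3 like Hlf (0.835), Wif1 like Cntfr (0.874) and Dkk2 like Slc27a3 (0.766).

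The other Wnt pathway genes are set here beside the shares of all genes over 2-fold in synovial fibroblasts, 8.73% higher and 23.6% lower, and several lists lay near the latter. Of 12 Wnt ligands tested, 2 were over 2-fold higher in TNF+ and 4 lower, with a median log2 ratio of -0.56. Wnt5a, a ligand of the pathway that does not use beta-catenin, was at 66.0 CPM (TNF-) and 13.9 CPM (TNF+) there (-2.24, -2.61 to -1.90), Wnt2 at 12.8 and 2.59 CPM (-2.31) and Wnt10b at 11.7 and 1.79 CPM (-2.70). Wnt6 was at 0.725 and 20.1 CPM (4.79, 4.22 to 5.40) and Wnt10a at 0.064 and 10.2 CPM (7.31, 5.68 to 9.63). The TNF+ UMIs of both of these lay wholly in the Mmp13 cluster, since without it neither had any.

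Among 16 receptors and co-receptors 2 were higher, Fzd1 (14.3 and 64.7 CPM, log2 ratio 2.18) and Fzd6 (3.14), and 4 lower, with Fzd4 at 51.6 and 15.5 CPM (-1.73), Lrp4, which anchors sclerostin, at -1.16 and Ror1, a Wnt5a receptor, at -1.11. The R-spondins, which strengthen Wnt signals, gave Rspo2 at 0.81 and 13.9 CPM (4.10) and Rspo3 at 7.11 and 34.8 CPM (2.29), while their receptor Lgr4 was at 31.2 and 13.9 CPM (-1.16), and 2 of 7 genes of that list were higher and 2 lower. Of 7 feedback and target genes 2 were higher, Ccnd1 (2.35) and Tcf7 (1.64), and 2 lower, Apcdd1 (-2.13) and Nkd1 (-1.42). Without the Mmp13 cluster, where 7.68% and 11.7% of all genes were over 2-fold, the counts of higher and lower genes were 1 and 2 of 11 ligands, 0 and 0 of 15 receptors, 2 and 0 of 7 R-spondin genes, and 0 and 1 of 7 feedback genes. The genes behind these counts changed: Rspo2 (0.02) and Rspo3 (0.35) were no longer higher, and the 2 that were, on 7 and 3 TNF+ UMIs, were Rspo1 (1.67) and Rnf43 (1.21), whose interval held 0. Wnt5a was still lower (-1.19, -1.72 to -0.72).

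In lung mesenchyme 5 of 6 Wnt ligands were over 2-fold lower in TNF+ and none higher, against 9.14% and 9.35% of all genes, among them Wnt2 at 79.3 and 10.3 CPM (log2 ratio -2.94, -4.40 to -1.80) and Wnt5a at 157 and 32.7 CPM (-2.27, -3.01 to -1.61). The clusters behind these sums differed between the libraries. The Hhip cluster, with 95 TNF- and 4 TNF+ cells, held 78.2% of the TNF- UMIs of Wnt5a, 99.1% of those of Lgr5 and 77.6% of those of Lgr6. In the alveolar-type cluster the level of Wnt5a was 49.6 CPM (110 UMIs) without and 47.0 CPM (17 UMIs) with the transgene, and that of Wnt2 145 CPM (321 UMIs) and 16.6 CPM (6 UMIs). Of 14 receptors 2 were higher, with Ror2 at 1.39, and 2 lower, with Lrp4 at -3.86. Of 7 R-spondin genes 3 were higher, Rspo1 (1.30), Rspo2 (3.14) and Rspo3 (2.22), and 2 lower, Lgr5 (-3.19) and Lgr6 (-1.88). Of 9 feedback and target genes 2 were higher, Nkd2 (2.88) and Ccnd1 (1.96), and 4 lower, with Notum at -3.46 and Apcdd1 at -1.55. Without the limit of 5000 genes, where 7.44% and 7.98% of all genes were over 2-fold, the counts of higher and lower genes were 2 and 3 of 9 ligands, 2 and 2 of 15 receptors, 3 and 2 of 9 R-spondin genes, and 3 and 3 of 9 feedback genes. Wnt5a was then at -1.34 (-1.69 to -1.01), and Lgr6 (-0.48) and Apcdd1 (-0.85) were no longer over 2-fold lower. With the limit the TNF+ counts behind these values were small, with 6 UMIs of Wnt2, 29 of Rspo2, 14 of Rspo3 and 1 of Notum.

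**Figure D5:**
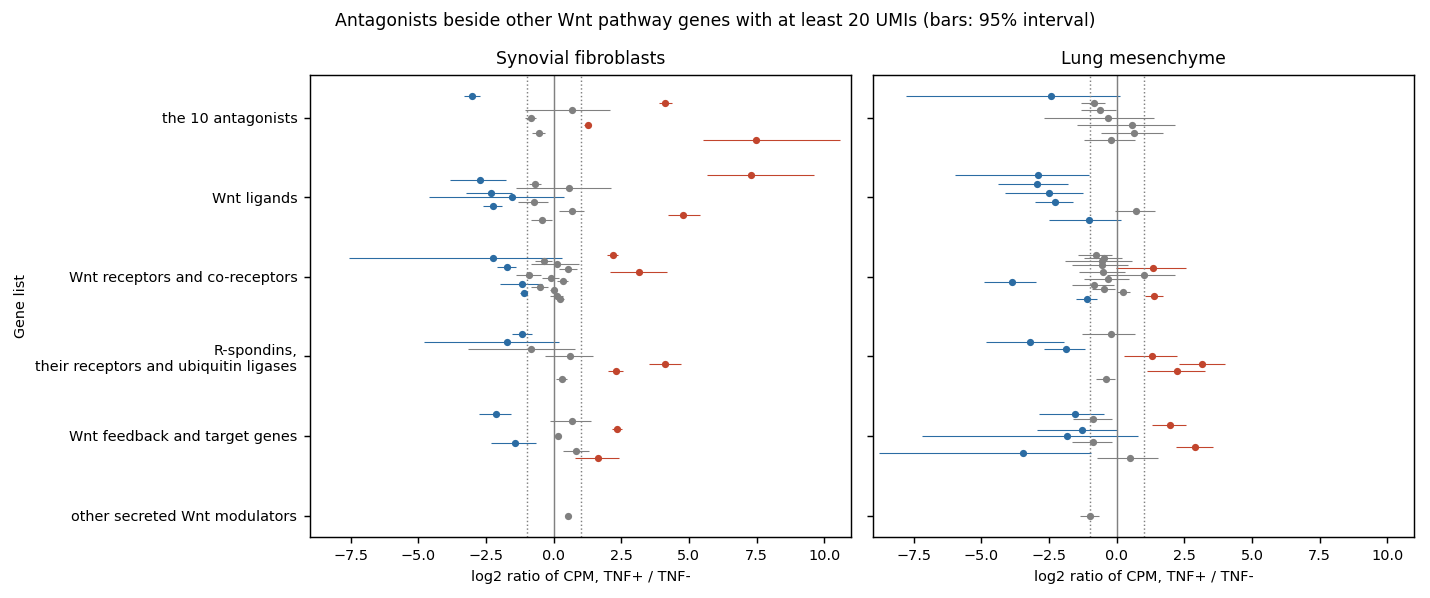
Log2 ratio of TNF+ over TNF- CPM, with 95% intervals of counting error, of each antagonist and each other Wnt pathway gene with at least 20 UMIs in synovial fibroblasts (left) and lung mesenchyme (right). Red points are over 2-fold higher, blue over 2-fold lower and grey within 2-fold. Every list except the single other modulator holds both red and blue points on the left, and 5 of 6 Wnt ligands are blue on the right.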

How the data were processed

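The deposited files hold, for each of 4 libraries, raw counts of UMIs by gene and barcode that the authors made with Cell Ranger 7.0.1 per the labels and methods, on the 10x mouse reference of build GRCm38 (introns counted by default). The human transgene is not in that reference and was not measured. Harmony, which the study used to join libraries, was not used here, and no cell annotation was used.

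The cell limits of the study were applied, which keep barcodes with 200 to 5000 genes and no more than 20% of UMIs from mitochondrial genes. Each tissue was clustered with scanpy 1.11.5 and leidenalg 0.10.2 (10000 UMIs per cell, 2000 variable genes, 30 components, 20 neighbours, resolution 0.8), without the antagonists and the Wnt lists. A name needed 5 markers 2-fold above other clusters in at least 10% of cells, and fell if another broad class had more markers, at least 2, among the top 10 genes. That minimum of 2 was set after the data were seen; without it a lung cluster of 3069 cells stayed unnamed. Unnamed cells were 4.21% and 4.12% of the TNF- and TNF+ synovium and 0 in the lung. Doublets were not removed in the main values; removal of the highest Scrublet scores (0.8% per 1000 barcodes) was an alternative.

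UMIs were summed per library or cell group and divided by all UMIs (CPM), with exact Poisson intervals. Shares have exact (Clopper-Pearson) intervals and log2 ratios conditional binomial ones, and the ratio script was tested on simulated data. Genes needed 20 UMIs over both libraries; over 2-fold counts as a difference in level, not as a test. A count of 0 allows up to 3 UMIs. Shares of cells were also thinned to 1000 UMIs. Positions are from GENCODE, promoters from RefSeq.

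The named genes were the 10 members, the 3 genes most like each member with at least 100 UMIs, and Wnt pathway genes over 2-fold with an interval off 0. One gene that this rule names is not reported here. The members and gene lists were chosen with earlier results of these data known. Sums over clusters use Python 3.11.15, numpy 2.4.6 and scipy 1.17.1.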

Additional observations from a re-analysis of the deposited data

Results flagged for a closer look

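Several ratios of TNF+ over TNF- pointed in different directions in the 2 tissues, and the differences between tissues were not tested, since each group was 1 library. Dkk2 was at a log2 ratio of -3.47 in the whole synovium and 0.37 in the whole lung, where it turned to -1.09 without the upper limit of 5000 genes. Dkk3 was at 1.56 in the whole synovium and -2.23 in the whole lung, and at 4.12 in synovial fibroblasts and -0.86 in lung mesenchyme. Sfrp2 was at 0.29 in the whole synovium and -3.94 in the whole lung.

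The barcodes left out by the filters held 2879 UMIs of the 10 genes in the TNF- synovium, 2941 in the TNF+ synovium, 2873 in the TNF- lung and 701 in the TNF+ lung. Nearly all lay in barcodes over 5000 genes, and whether those held 1 cell or several was not tested.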

How the results depend on the processing

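No paired analysis was possible because each group was 1 library. Among members over 2-fold, the direction was kept in 54 of 54 recomputed values in the whole synovium, 50 of 50 in synovial fibroblasts, 48 of 50 in the whole lung and 11 of 11 in lung mesenchyme, and over 2-fold in 52, 48, 48 and 10. These totals include the minimum of 5 and of 100 UMIs. Those settings change which genes are listed but not a ratio, so their values could not differ. The lung mesenchyme values are all of Dkk2, whose TNF- UMIs came mostly from 1 cell. The 2 that reversed were Sost in the whole lung, at 0.15 with no filter on cells and 0.14 with no upper limit on genes. Counts of members moved as follows, and the cause was not tested. Over 2-fold lower in synovial fibroblasts became 2, not 1, with doublets removed, with each library clustered by itself, with cells weighted equally and as UMIs per cell. In lung mesenchyme the lower count of 1 became 0 with doublets removed, at resolution 1.6 and at a minimum of 100 UMIs, 2 without clusters over 90% from 1 library, 4 with cells weighted equally and 5 as UMIs per cell, and the higher count of 0 became 1 with no filter, with no upper limit and at a minimum of 5 UMIs. The minimum of 5 UMIs also gave 5 members lower in the whole synovium, not 3, and 100 UMIs gave 3 lower in the whole lung, not 6. Members with over 50% of UMIs in mesenchyme numbered 4 in the TNF+ lung with no filter and with no upper limit, 1 at resolution 1.6 and 0 at 100 UMIs, against 2, and 3 in the TNF- lung at 100 UMIs, against 5. Synovial fibroblasts without clusters over 90% from 1 library could not be had, as all 4 exceed it. The no upper limit and the no Mmp13 cluster alternatives were chosen after seeing the data. Depth limits Dkk1, Sost and, in the TNF+ lung, all members.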
